A study of Mus musculus with 28 samples.

Results

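Acetylation of lysine 27 on histone H3 (H3K27Ac) marks active promoters and active enhancers, and a peak of it far from any transcription start site (TSS) is commonly read as a candidate enhancer. Some active enhancers lie in dense clusters near genes of cell identity, while others stand alone. The isolated distal peaks described here were selected on the H3K27Ac peak list of wild type (WT) mouse embryonic stem cells (mESCs), the WT H3K9me3 list and gene annotation. A peak was taken when it lay on an autosome, more than 1000 bp from every protein-coding TSS, with no other such distal peak within 12.5 kb, and outside the WT domains of H3K9me3, a mark of silenced chromatin. Of 13922 WT H3K27Ac peaks, 13749 were on autosomes and 9080 of these were distal. Of the distal peaks, 2243 had no distal neighbour within the spacing, and removal of 336 that overlapped H3K9me3 left 1907 isolated distal peaks, 13.7% of the list. The position of each peak, its H3K27Ac call in WT and the absence of WT H3K9me3 are therefore given by the selection. Its H3K27Ac call in the knockout, its H3K4me3 and its Oct4 were not used by it.

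The study compared WT cells of HATX, a haploid mESC line with a doxycycline-inducible Xist transgene, with HATX cells lacking Spen (Spen KO clone 2). Spen is an RNA-binding corepressor required for gene silencing by Xist RNA. Both genotypes have a mixed genomic background and were cultured in serum and LIF, and the knockout is represented by 1 clone, so the effects of Spen loss and of that clone cannot be told apart. ChIP-seq of H3K27Ac, H3K4me3, H3K9me3 and Oct4 (Pou5f1, a core pluripotency transcription factor) was made in 2 libraries per genotype, which the authors describe as technical replicates, so any spread between them may be technical. H3K27Ac and H3K4me3 are present as 1 combined list per genotype, and a list holds calls without reads, so depth is unknown and a peak missing from a list may be weaker rather than absent. Wilson and Newcombe 95% intervals given here cover counting error over peaks only.

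All 8 mESC marker genes examined had an H3K27Ac peak within 1000 bp of a TSS in WT and 7 of 8 in Spen KO. H3K27Ac was not found in WT at the promoters of any of the 5 primitive endoderm, 5 trophoblast, 5 fibroblast or 3 neural markers found in the annotation. In Spen KO 1 of the 3 neural markers had it, and none of the endoderm, trophoblast and fibroblast markers. The H3K27Ac lists held 13922 peaks in WT and 11932 in Spen KO, and the Oct4 lists 1806 and 4111 peaks in WT and 2617 and 3028 in Spen KO. Oct4 WT replicate 1 stood apart from the other 3 libraries, with few distal peaks. The main Oct4 counts and differences at isolated peaks are given with and without it.

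Isolated peaks lay both inside and between protein-coding genes. The median distance to the nearest protein-coding TSS was 12.1 kb, and the median gap to the next distal H3K27Ac peak was 59.1 kb. An exon of a protein-coding gene was overlapped by 342 peaks (17.9%), 799 (41.9%) lay in introns and 766 (40.2%) lay between genes. The 1907 peaks had 1739 different nearest genes, of which 152 were nearest to 2 or more peaks. Of these nearest genes, 42.6% had H3K27Ac and 87.2% had H3K4me3 within 1000 bp of a TSS in WT, against 19.9% and 66.2% of all 21410 autosomal protein-coding genes. The peaks were weaker than other H3K27Ac peaks. Their median percentile in the WT list, ranked by the mean of both library scores, was 33.6, against 43.8 for the 6136 clustered distal peaks (those with a distal neighbour inside the spacing) and 62.5 for the 4669 promoter peaks. Clustered peaks lay a median of 0.263 kb from the next distal peak (quartiles 0.12 and 1.287 kb), so most had a neighbour far closer than the spacing. Whether such neighbours are parts of 1 acetylated region was not tested. The median width of isolated peaks was 960 bp. The 2 library scores had a Spearman correlation of 0.605 over the 1907 peaks, given as a description because the scores share 1 list and its filter.

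Sequence is shown first, for a few isolated peaks with Oct4. Oct4 binds the octamer, and with Sox2 it occupies many enhancers of pluripotency genes. The 6 isolated peaks with the highest score among those with Oct4 in at least 3 of the 4 libraries, with 3 more whose Oct4 summit window held an octamer at over 10-fold enrichment (added after their values were seen), are printed as 200 bases of the forward strand of NCBIM37 (mm9) centred on the summit of the most enriched Oct4 peak. Each is named by the gene with the nearest TSS. Capitals mark the octamer ATGCAAAT or its core TGCAAAT, on either strand.

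Six4, chr12:74187042-74187241: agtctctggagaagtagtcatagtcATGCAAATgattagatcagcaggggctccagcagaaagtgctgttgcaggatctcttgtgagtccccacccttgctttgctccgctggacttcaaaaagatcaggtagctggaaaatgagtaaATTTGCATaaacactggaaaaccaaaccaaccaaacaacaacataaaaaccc
Lifr, chr15:7066743-7066942: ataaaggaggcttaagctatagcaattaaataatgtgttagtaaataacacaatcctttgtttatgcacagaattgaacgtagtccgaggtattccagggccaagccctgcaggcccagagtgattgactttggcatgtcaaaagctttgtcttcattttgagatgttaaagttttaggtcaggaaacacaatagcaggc
Dppa5a, chr9:78212688-78212887: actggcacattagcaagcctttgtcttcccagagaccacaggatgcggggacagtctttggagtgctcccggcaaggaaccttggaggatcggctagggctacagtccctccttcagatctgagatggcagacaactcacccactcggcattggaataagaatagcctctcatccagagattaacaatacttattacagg
P4ha2, chr11:53953599-53953798: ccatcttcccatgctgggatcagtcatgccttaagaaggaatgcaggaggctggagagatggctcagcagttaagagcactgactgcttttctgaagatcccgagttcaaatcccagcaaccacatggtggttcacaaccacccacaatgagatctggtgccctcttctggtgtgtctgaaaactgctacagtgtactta
Sgk1, chr10:21708336-21708535: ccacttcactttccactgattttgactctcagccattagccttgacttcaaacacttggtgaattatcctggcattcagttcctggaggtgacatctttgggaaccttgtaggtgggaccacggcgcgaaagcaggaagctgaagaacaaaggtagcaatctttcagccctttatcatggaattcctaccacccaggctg
Gm8910, chr3:11212436-11212635: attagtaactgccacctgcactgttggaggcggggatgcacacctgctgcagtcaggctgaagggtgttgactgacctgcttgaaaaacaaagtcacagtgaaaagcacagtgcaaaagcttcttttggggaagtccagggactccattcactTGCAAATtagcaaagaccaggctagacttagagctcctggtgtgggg
Tcfcp2l1, chr1:120522088-120522287: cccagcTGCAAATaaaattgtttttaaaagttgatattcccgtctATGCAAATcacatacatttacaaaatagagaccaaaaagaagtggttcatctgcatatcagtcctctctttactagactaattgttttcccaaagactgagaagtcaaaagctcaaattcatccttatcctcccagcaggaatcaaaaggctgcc
Rad21, chr15:51844688-51844887: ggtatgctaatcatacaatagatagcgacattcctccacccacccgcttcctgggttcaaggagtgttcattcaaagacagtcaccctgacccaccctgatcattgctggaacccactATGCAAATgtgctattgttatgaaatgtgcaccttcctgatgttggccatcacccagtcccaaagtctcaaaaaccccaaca
Fzd7, chr1:59433378-59433577: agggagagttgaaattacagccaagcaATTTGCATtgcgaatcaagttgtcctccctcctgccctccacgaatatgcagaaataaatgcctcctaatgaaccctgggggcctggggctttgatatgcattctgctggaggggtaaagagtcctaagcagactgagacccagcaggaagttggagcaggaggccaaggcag

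The peak nearest Six4, a homeobox gene, held 2 octamers within this window and was the only one of the 9 with an Oct4 peak in WT replicate 1 as well as in the 3 other libraries. The window nearest Tcfcp2l1, a transcription factor of naive pluripotency now called Tfcp2l1, held an octamer and a second core. It lay beyond the edge of the H3K27Ac peak, whose Oct4 peak reached past it. The Sgk1 summit, at 21708436, also lay outside its H3K27Ac peak, which ended at 21708369, so most of that window is outside the peak. How many Oct4 summits lay outside their H3K27Ac peak was not counted. Rad21 encodes a cohesin subunit, and Fzd7 a Wnt receptor. The peaks near Tcfcp2l1, Rad21 and Fzd7 had Oct4 in 1, 2 and 3 libraries. The windows nearest Lifr, Dppa5a, P4ha2 and Sgk1 held neither the octamer nor its core, which says only that these letters are not in those 200 bases.

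The first question was how many isolated peaks were also called in cells without Spen. Of 1907 isolated peaks, 787 (41.3%, Wilson 95% interval 39.1 to 43.5) overlapped a Spen KO H3K27Ac peak by at least 1 bp and are called kept, and 1120 did not. Of the whole WT list, 60.2% was kept. Clustered distal peaks were kept in 49.6% of cases, so that isolated peaks were lower by 8.29 percentage points (Newcombe 95% interval of the difference -10.8 to -5.74). Promoter peaks were kept in 79.7% of cases, a difference of -38.4 points (-40.9 to -35.9). With 1 list per genotype there is no replicate test of these differences.

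Retention followed the strength of the peak. Over 5 score classes of equal size in the WT list, from lowest to highest, 14.1%, 36.2%, 51.1%, 67.4% and 90% of isolated peaks were kept. Kept peaks had a median score percentile of 55.0 and a median width of 1214 bp. The peaks not kept had medians of 21.2 and 863.5 bp. Most of the gap to clustered peaks went with score. When clustered peaks were weighted to the score classes of isolated peaks, 43.0% were kept, a difference of -1.75 points, and only the lowest class had an interval below 0 (14.1% against 18.9%, interval -8.06 to -1.36). The gap to promoters shrank less, to -22.4 points after the same weighting, and isolated peaks were below promoters in each of the 5 classes.

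**Figure D1:**
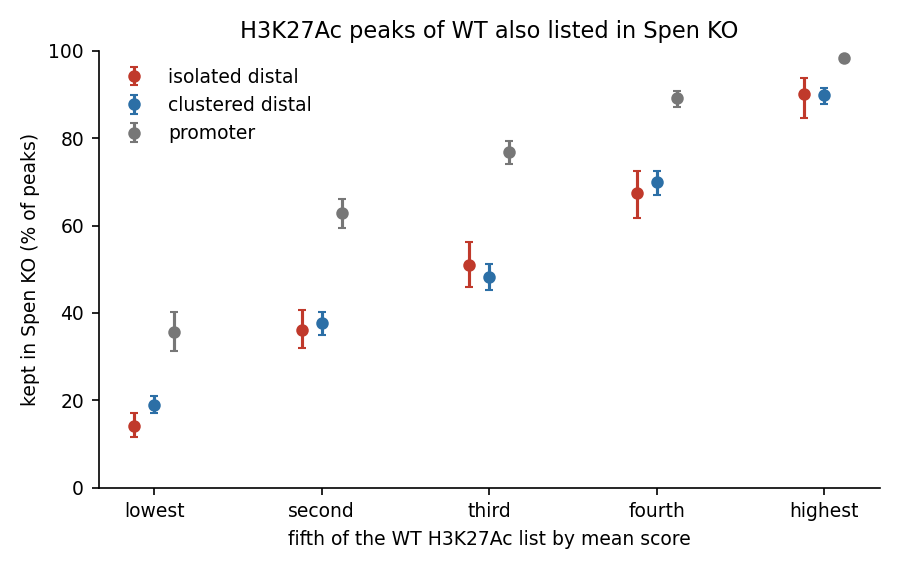
Percent of WT H3K27Ac peaks kept in the Spen KO list (vertical axis) by score class of the WT list from lowest to highest (horizontal axis), for isolated distal, clustered distal and promoter peaks. Points are shares and bars Wilson 95% intervals. Isolated peaks rise from 14.1% to 90% beside clustered peaks, and promoters lie higher in each class.

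The same rule applied to the Spen KO lists, chosen after the first result was seen, gave 1643 isolated distal peaks. Of these, 63.2% (60.9 to 65.5) were in the WT list, against 70.6% of all Spen KO H3K27Ac peaks. So isolated peaks were below the whole list in both directions, and their share was lower from WT to Spen KO than from Spen KO to WT. The WT list is the longer of the pair. With the WT list cut to the length of the Spen KO list, 50.7% of isolated WT peaks were kept. The cut took out the WT peaks of lowest score and left 1652 isolated peaks. The reverse share was not recomputed against the cut list, so 50.7% and 63.2% are not matched.

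Retention differed by position relative to genes. Of isolated peaks between genes, 430 of 766 were kept (56.1%), against 357 of 1141 inside a gene (31.3%), a difference of 24.8 points (Newcombe 95% interval 20.4 to 29.2). Exonic peaks were kept in 28.1% and intronic peaks in 32.7% of cases. The difference had the same direction on each of the 19 autosomes, where between 39.0% (chromosome 5) and 69.0% (chromosome 19) of intergenic peaks and between 20.5% (chromosome 16) and 53.8% (chromosome 14) of genic peaks were kept. Genic peaks were weaker, with a median percentile of 25.6 against 44.7. Weighted to the score classes of intergenic peaks, 43.1% of genic peaks were kept, which left 13.1 points. Restricted to peaks more than 10 kb from a TSS, the shares were 56.1% between genes and 34.0% inside them. Within each of 3 GC classes of equal size, intergenic peaks were also kept more often, in 57.4%, 54.8% and 56.1% of cases against 36.7%, 32.6% and 25.8%.

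**Figure D2:**
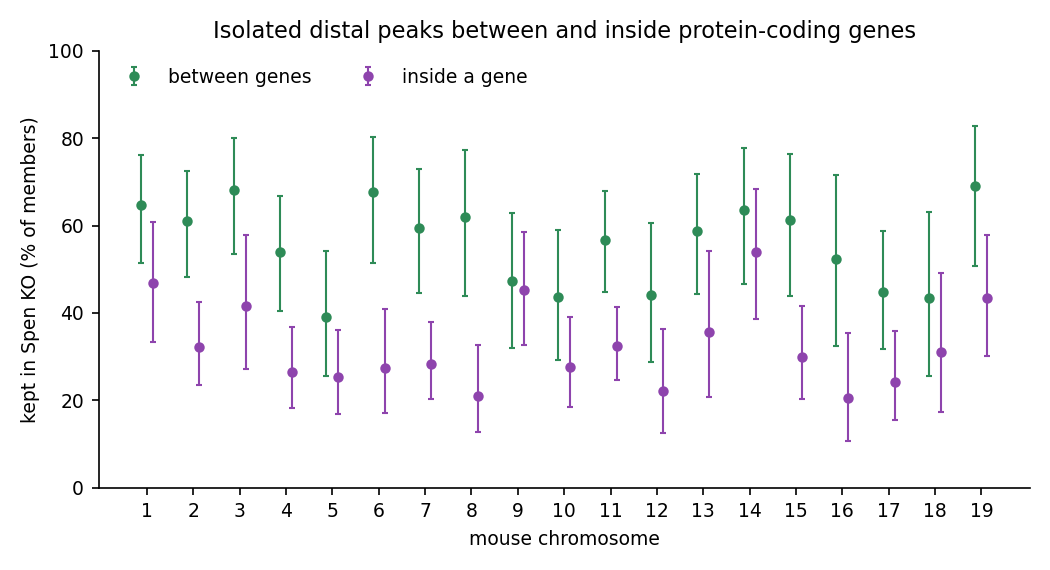
Percent of isolated distal peaks kept in Spen KO (vertical axis) on each autosome (horizontal axis), for peaks between protein-coding genes and peaks inside one. Points are shares and bars Wilson 95% intervals. The point between genes is the higher on each of the 19 chromosomes, although many bars overlap.

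This contrast was not particular to isolated peaks. Clustered distal peaks were kept in 63.4% of cases between genes and 39.96% inside them, a difference of 23.5 points (21.0 to 25.9). In the reverse direction it was not seen. Of the isolated peaks of Spen KO, 61.9% between genes and 64.7% inside genes were in the WT list, a difference of -2.82 points (-7.46 to 1.84). Genic peaks made up 59.8% of isolated peaks in WT and 48.9% in Spen KO. Among genic isolated peaks of WT, 27.2% were kept where the host gene had promoter H3K27Ac in WT (154 of 567) and 35.4% where it had none (203 of 574). The part of the longer WT list in this contrast was not tested beyond the cut to equal length, under which the difference was 18.7 points.

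Oct4 was found at 246 isolated peaks (12.9%) in at least 1 library, against 14.5% of clustered and 19.3% of promoter peaks. With WT replicate 1 left out, it was found at 242 isolated peaks. Clustered and promoter peaks were not counted without that library, which had Oct4 at 7.71% of promoter peaks. Isolated minus promoter shares were -6.92 points there, 1.83 in WT replicate 2, and -0.93 and 0.84 in Spen KO. The order of these classes thus differed between libraries. Oct4 in at least 3 libraries was found at 3.57% of isolated, 4.53% of clustered and 2.63% of promoter peaks. By library, 0.787% and 8.71% of isolated peaks had an Oct4 peak in WT replicates 1 and 2, and 6.502% and 7.60% in Spen KO replicates 1 and 2. The corresponding shares of the whole WT H3K27Ac list were 3.55%, 9.24%, 7.87% and 8.99%. WT replicate 1 lay far below the other libraries, so the genotypes overlapped. WT libraries averaged 4.75% ± 5.60 (SD, n = 2) and those of Spen KO 7.05% ± 0.779 (SD, n = 2). Spen KO was thus 2.31 points higher, and a two-sided exact permutation of the libraries gave p = 1, where 0.333 is the smallest value that 2 against 2 allow. Without WT replicate 1 Spen KO minus WT was -1.65 points, and without WT replicate 2 it was 6.27. Isolated peaks had less Oct4 than clustered peaks in 4 of 4 libraries, with isolated minus clustered shares of -0.615, -0.976, -1.16 and -2.04 points and a mean difference of -1.20 ± 0.608 (SD, n = 4). The exact sign-flip permutation test gave p = 0.125, the smallest it can give with 4 libraries. This did not hold throughout. Where at least 50% of the shorter peak had to be shared, the mean difference was -0.134 points (exact sign-flip permutation p = 0.625), with a spacing of 25000 bp it was -0.137 (p = 0.625), and at an IDR of at most 0.01 it was -0.589 (p = 0.375). In each of these 3 settings isolated peaks were lower in 3 of 4 libraries and higher in WT replicate 2.

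**Figure D3:**
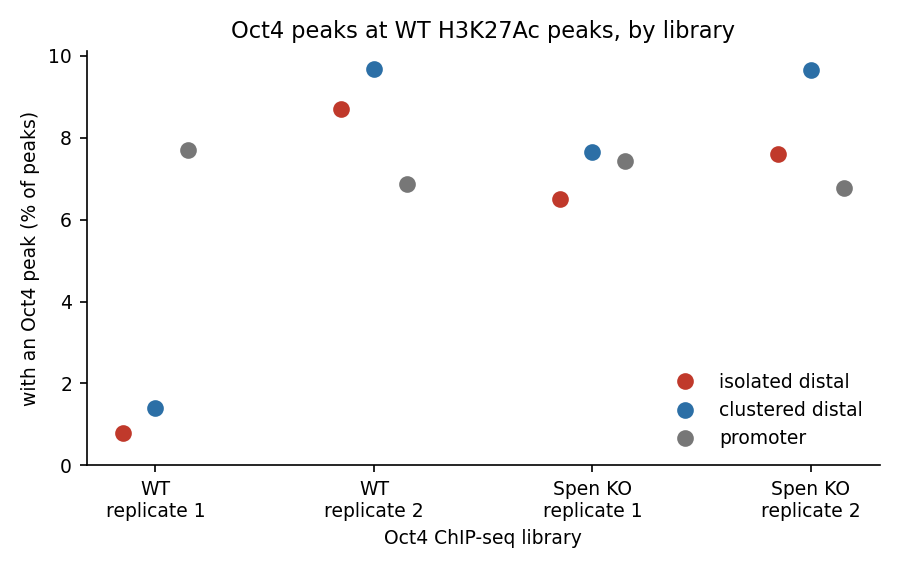
Percent of isolated distal, clustered distal and promoter H3K27Ac peaks of WT that overlap an Oct4 peak (vertical axis, from 0) in each of the 4 Oct4 libraries (horizontal axis). Each point is 1 library. Isolated peaks lie below clustered peaks in each library, and WT replicate 1 is low at both distal classes but not at promoters.

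Libraries shared many of their Oct4 sites at isolated peaks. Of the 166 isolated peaks with Oct4 in WT replicate 2, 82 (49.4%) also had it in replicate 1 of Spen KO and 94 (56.6%) in its replicate 2, which makes 66.1% of the 124 and 64.8% of the 145 in those libraries. No isolated peak had Oct4 in the pair of WT libraries while lacking it throughout Spen KO, and 17 had the opposite pattern. Since WT replicate 1 held Oct4 at only 15 isolated peaks, these 2 counts are not matched. The median fold enrichment over input at isolated peaks was similar in the libraries, from 6.16 in WT replicate 1 to 6.78 in Spen KO replicate 1.

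Isolated peaks with Oct4 were kept more often. The share kept was 36.5% for the 1661 peaks without Oct4, and 69.7%, 71.2%, 81.4% and 88.9% for those with it in 1 to 4 libraries (119, 59, 59 and 9 peaks). Without WT replicate 1 the share was 36.6% for 1665 peaks with no Oct4, and 69.6%, 72.1% and 81.8% with it in 1 to 3 libraries (115, 61 and 66 peaks). With Oct4 in at least 1 library, 73.6% were kept, 37.1 points above those without (30.8 to 42.7). Peaks with Oct4 were also stronger, with a median percentile of 61.2 against 30.5, and the difference was 17.2 points once peaks without Oct4 were weighted to the same score classes. Each library alone gave the same direction, from 37.3 points in WT replicate 2 to 45.8 points in WT replicate 1. Oct4 was more common at intergenic than at genic isolated peaks (19.5% against 8.50%). Among peaks without Oct4 the gene context still separated them, with 52.7% kept between genes and 26.9% inside. Among those with Oct4 the shares were 70.5% and 78.4%. Higher retention with Oct4 was not particular to isolated peaks. Clustered peaks with Oct4 were kept in 83.55% of cases between genes and 81.9% inside them. Without Oct4 the clustered shares were 58.0% and 35.3%.

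In at least 3 libraries Oct4 was found at 68 isolated peaks (3.57%), against 3.99% of the whole list, and 56 of the 68 were kept. Of the 68, 66 had Oct4 in all 3 libraries other than WT replicate 1, and 54 of these were kept. Oct4 was seen in WT replicate 2 and both Spen KO libraries, but not in WT replicate 1, at 5 of the 6 named peaks. Lifr encodes the receptor for LIF, the cytokine that maintains these cells in culture. The peak 9.29 kb from its TSS (chromosome 15, 7063529 to 7070273, intergenic) had 7.60-fold Oct4 enrichment in WT replicate 2 and 11.2-fold and 9.87-fold in Spen KO. It was at percentile 98.5 in WT and 99.3 in Spen KO. The Six4 peak (chromosome 12, 74184072 to 74197431, intergenic) was the widest isolated peak, at 13360 bp, with enrichments of 5.75-fold and 10.8-fold in WT and 5.65-fold and 9.07-fold in Spen KO. Dppa5a, a marker of pluripotent cells, had a peak 1.34 kb from its TSS (chromosome 9, 78206258 to 78214643) with 8.87-fold in WT replicate 2 and 9.60-fold and 9.21-fold in Spen KO. The peak near the kinase gene Sgk1 (chromosome 10, 21700361 to 21708369, intron) had 8.24-fold, 6.78-fold and 8.00-fold. The peak near Gm8910 (chromosome 3, 11210042 to 11214803) stood 195 kb from a TSS and had 9.01-fold, 9.60-fold and 8.61-fold. Enrichment near P4ha2, a collagen prolyl hydroxylase gene (chromosome 11, 53953500 to 53954244), was lower, at 6.57-fold, 5.40-fold and 2.12-fold. In each of these 6 cases H3K27Ac was kept.

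The octamer was rare in isolated peaks but more frequent at their Oct4 summits. It was present in 13 of 246 windows of 200 bp at Oct4 summits (5.28%, 3.11 to 8.83), in 1.83% of 492 windows 1000 bp to either side, and in 0.542% of 1661 windows at the centre of isolated peaks without Oct4. Over the centres of all 12712 isolated, clustered and promoter peaks it was 0.629%. The core TGCAAAT, which every octamer contains and which was added after the octamer shares were seen, was in 9.76%, 4.47%, 1.87% and 1.98% of the same windows. The estrogen-related receptor motif AAGGTCA, bound by Esrrb, was in 8.94% of summit windows and 2.44% of flanking windows, and the Sox motif CATTGT in 18.3% and 12.8%. The intervals of summit and flanking windows overlapped for the octamer, its core and Sox, and did not overlap for Esrrb. For the Klf motif GGGTGTGG (3.66% and 1.63%), the Stat motif TTCCNGGAA (1.22% and 1.02%) and the AP-1 motif TGANTCA (5.28% and 6.91%) they overlapped as well. For the octamer the lower limit at summits was 3.11% and the upper limit in flanks 3.44%, and for the core 6.64% and 6.68%. Overlap of separate intervals does not show that shares are alike, and no interval of these differences was made. A Sox motif directly before an octamer, with at most 1 base between, was in none of the windows. Of the 13 peaks with an octamer at the summit, 7 were kept, and of the 233 without it 174 were kept. These summit shares were not particular to isolated peaks. At 889 Oct4 summits of clustered peaks the octamer was in 4.05% of windows and its core in 7.99%. Sox was in 18.6% of them and Esrrb in 9.67%. A match is a description of the letters and not of binding.

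**Figure D4:**
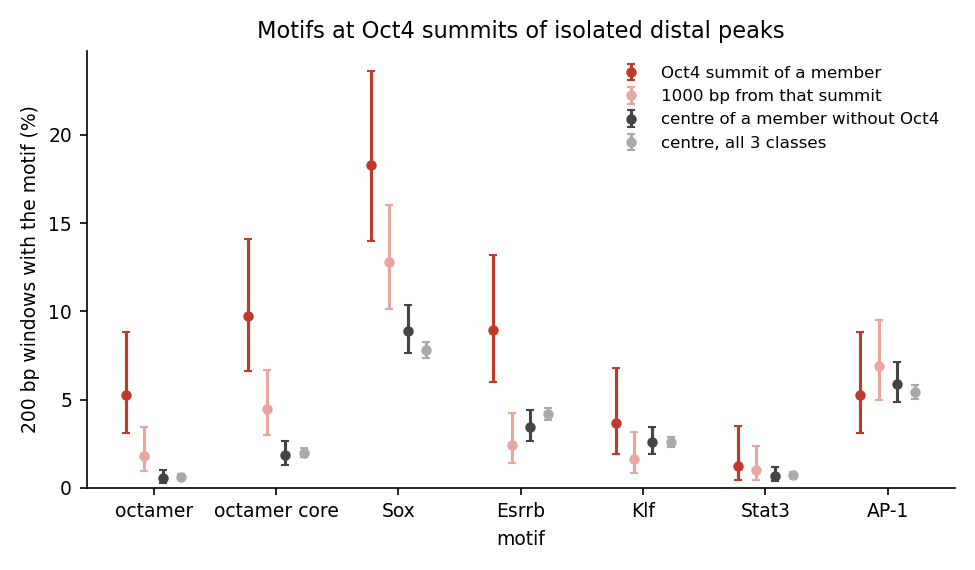
Percent of 200 bp windows holding each motif on either strand (vertical axis, from 0) for 7 motifs (horizontal axis), at Oct4 summits of isolated distal peaks, 1000 bp from those summits, at the centre of isolated peaks without Oct4, and at the centre of all isolated, clustered and promoter peaks. Points are shares and bars Wilson 95% intervals. Summit windows have the highest share for each motif but AP-1. Their interval is clear of that of the flanking windows for Esrrb alone, and barely overlaps it for the octamer and its core. Overlap of separate intervals does not show that shares are alike.

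H3K4me3, a mark concentrated at promoters, was present in WT at 748 isolated peaks (39.2%, 37.1 to 41.4), against 57.3% of the whole list, 40.3% of clustered and 95.1% of promoter peaks. The difference from clustered peaks was -1.08 points with an interval of -3.57 to 1.45. In Spen KO, H3K4me3 was present at 623 of the same isolated peaks (32.7%), against 51.9% of the whole list. The change of -6.55 points was made of 209 peaks with H3K4me3 only in WT and 84 with it only in Spen KO, while 539 had it in both. The share with WT H3K4me3 fell with distance from the TSS, from 66.3% at 1 to 2.5 kb through 38.8% at 2.5 to 10 kb and 34.4% at 10 to 50 kb to 29.8% beyond 50 kb. Oct4 went the other way at the far end, with 11.4%, 8.45%, 13.3% and 21.3% of isolated peaks over the same distances.

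The H3K4me3 state in Spen KO went with H3K27Ac there. Isolated peaks with H3K4me3 in both genotypes were kept in 59.0% of cases, those with it only in Spen KO in 54.8%, those with it only in WT in 28.7% and those with it in neither in 33.8%. These shares also went with score. For H3K4me3 in Spen KO the difference in retention between peaks with and without it was 25.5 points (20.8 to 30.1), and 15.7 after weighting to score classes. For H3K4me3 in WT it was 15.2 points (10.7 to 19.7), and 5.06 after weighting. Of the 1120 peaks not kept, 259 (23.1%) still had H3K4me3 in Spen KO, 48 (4.29%) had Oct4 in a Spen KO library, and 73 (6.52%) lay within 1000 bp of a Spen KO H3K27Ac peak without touching it. H3K9me3, absent from all isolated peaks in WT by selection, was present in Spen KO at 26 of them (1.36%), and 12 of the 26 were kept. The share was 1.04% for clustered peaks, which also lack WT H3K9me3 by selection, and 0.835% for promoter peaks. The whole list had 5.34%, but it includes distal peaks inside WT H3K9me3 domains, of which 58.8% had the mark in Spen KO.

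**Figure D5:**
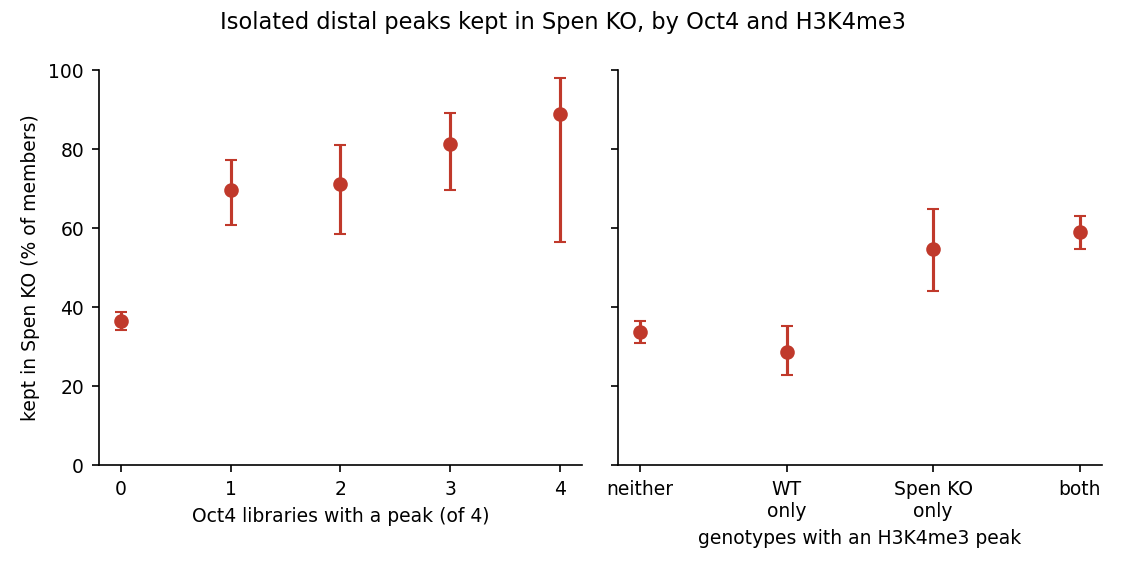
Percent of isolated distal peaks kept in Spen KO (vertical axis, shared) by the number of Oct4 libraries with a peak (left) and by the genotypes with an H3K4me3 peak (right). Points are shares and bars Wilson 95% intervals. The share is 36.5% without Oct4 and 69.7% or more with it, and is higher with H3K4me3 in Spen KO than without.

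A small set of isolated peaks lay in multi-copy sequence, taken as at least 50% of a peak's 31-base words present at least 10 times in the genome. These were 69 of 1907 (3.62%), against 0.587% of clustered and 0.1499% of promoter peaks. The excess over clustered peaks was 3.03 points (2.25 to 3.98). They were narrow, with a median width of 208 bp against 982 bp for other isolated peaks. Of the 69, 56 (81.2%) were kept, against 39.8% of the others, and the difference was 30.3 points after weighting to their score classes. H3K4me3 was present at 18.8% of them in WT and 24.6% in Spen KO. H3K9me3 was present in Spen KO at 5 of the 69 and at 21 of the 1838 others. Multi-copy clustered peaks were kept in 25 of 36 cases (69.4%, 53.1 to 82.0), against 49.6% of all clustered peaks. Of multi-copy promoter peaks, 3 of 7 were kept, against 79.7% of all promoter peaks. The authors aligned their reads both with unique placement and, for repeats, with each multi-mapping read given a random place. Which alignment lies behind the lists is not given in the sources used here, and the part that read placement has in these shares was not tested.

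The 10 isolated peaks with the highest scores were all kept. The highest was near Hspa1b, an inducible heat shock chaperone gene (chromosome 17, 35086798 to 35089892, percentile 99.8 in WT and 93.3 in Spen KO), with no Oct4 and with H3K4me3 in both genotypes. Hspa1b has a near-identical neighbouring copy, Hspa1a, so reads there can be hard to place. Next were peaks at Bcat2, a branched-chain amino acid transaminase gene (chromosome 7, 52819866 to 52823688, exon), and near Pigk, a gene of GPI anchor transfer (chromosome 3, 152364596 to 152364819). The Pigk peak was 224 bp wide and 3480 kb from the next distal peak, and 23.2% of its words were multi-copy. The peaks near P4ha2, Six4 and Lifr also belonged to the 10. The others lay near Rictor, which encodes a subunit of mTOR complex 2, and near Ypel4, Gm16833 and Myo1g. Their Spen KO percentiles were 62.9 (Rictor), 89.9 (Ypel4), 99.3 (Gm16833) and 79.3 (Myo1g).

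The 6 strongest isolated peaks that were not kept had percentiles from 86.8 to 94.8 in WT. They lay near Smoc1 (chromosome 12, 82118587 to 82122019), which encodes a secreted calcium-binding protein, Gne (chromosome 4, 44074488 to 44076270), the key enzyme of sialic acid synthesis, and Ror2 (chromosome 13, 53328844 to 53330114), a Wnt5a receptor. The rest were near Ndufs4 (chromosome 13, 115087038 to 115087949), a subunit of respiratory complex I, Iqgap1 (chromosome 7, 87922216 to 87927691), a scaffold protein, and Ptpn6 (chromosome 6, 124667425 to 124669596), a tyrosine phosphatase. Of the 6, 4 were intronic. H3K4me3 was present in WT at 5 of them and in Spen KO at those near Smoc1, Ror2, Iqgap1 and Ptpn6. Oct4 was found in WT replicate 2 only, near Ror2 (6.33-fold) and Ptpn6 (5.07-fold).

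Genes of pluripotency were then read from lists. Of all autosomal protein-coding genes, 17.5% had an isolated peak within 50 kb of a TSS, and 41.3% of all isolated peaks were kept. Here a peak near a listed gene is one within 50 kb of its TSS, and another gene can be nearer. Among Oct4 target signalling and Dppa genes, 10 of 17 had one, and 6 of the 10 peaks were kept. Beside Dppa5a, the peak 1.28 kb from Upp1, a uridine phosphorylase gene, was at percentile 60.9 and had Oct4 at 7.88-fold in WT replicate 2 and 6.86-fold and 4.91-fold in Spen KO. The peak for Lefty1, a Nodal antagonist, lay 44.85 kb from its TSS, in an intron, and its nearest gene was Ephx1. This peak (percentile 43.4) and that near Utf1, a chromatin factor of undifferentiated cells (48.1), were kept, at percentiles 81.0 and 84.03 of the Spen KO H3K27Ac list. The lists differ in length and their depth is unknown, so percentiles in them are given side by side and not as a change. The peak near Trh, the thyrotropin-releasing hormone gene, was kept at percentile 7.28 after 49.3 in WT, and that near Fbxo15 was not kept. The 10 genes each had promoter H3K27Ac in WT, and Jam2 lacked it in Spen KO.

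Of 15 core pluripotency factors, 4 had an isolated peak within 50 kb. Those near Tcfcp2l1 (percentile 70.7) and Tbx3 (37.8) were kept, at percentiles 10.6 and 99.0 in Spen KO, and those near Nanog (47.2) and Nr5a2 (66.7) were not. The Nanog peak lay 36.8 kb from its TSS, in an intron. Tcfcp2l1 had promoter H3K27Ac in WT and not in Spen KO, while the promoters of the other 3 had it in both. The Tcfcp2l1 peak had Oct4 in Spen KO replicate 2 alone, at 14.5-fold. Both LIF pathway genes with an isolated peak, of 12, were receptors. The Il6st peak (gp130, chromosome 13, 113229576 to 113231683, 33.5 kb away) was kept and had Oct4 at 5.07-fold in WT replicate 2 and 6.68-fold and 5.78-fold in Spen KO, as Lifr did. Promoter H3K27Ac was absent at Il6st in both lists and present at Lifr in Spen KO only.

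Primed pluripotency genes had an isolated peak in 4 of 12 cases. The peaks near Zic2, a zinc finger factor (percentile 51.5, Oct4 in 3 libraries), and Sall2 (60.6) were kept. Those near Dnmt3a, a de novo DNA methyltransferase (61.4), and Pou3f1 (38.5, 45.7 kb away in an intron) were not. Among early lineage regulators, 2 of 15 had such a peak, with that near Gsc (24.4, 39.2 kb away) kept and that near Gata3 (17.8, 21.6 kb away) not. Over the 5 lists, 13 of 22 peaks were kept, where the share was 41.3% for all isolated peaks and 60.2% for the whole WT list. The list peaks were not weighted for score. No list was tested for enrichment.

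H3K27Ac at the nearest promoter was taken within 1000 bp of the nearest TSS alone, without other TSSs of the same gene. It was present in WT for 690 isolated peaks (36.2%), against 52.9% of clustered distal peaks. Retention at the peak was 39.1% with it and 42.5% without it (difference -3.35 points, -7.89 to 1.25, and -0.547 after weighting to score classes). Where the nearest promoter was acetylated in WT, its own H3K27Ac was also called in Spen KO in 88.1% of cases when the isolated peak was kept (238 of 270) and 76.7% when it was not (322 of 420). More than 10 kb away the shares were 89.3% and 80.7%. A promoter H3K27Ac peak lay within the spacing of 518 isolated peaks (27.2%), against 34.9% of clustered peaks. Of these isolated peaks 36.1% were kept, against 43.2% of the rest and 39.7% of the rest weighted to the same score classes, a difference of -7.10 points that became -3.56.

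Retention differed between chromosomes, from 30.2% (chromosome 5) to 58.3% (chromosome 14), and was below that of promoters on 19 of 19 and below that of clustered peaks on 16 of 19. Over the 19 chromosomes it went with the retention of promoter peaks (Spearman 0.785) and of clustered peaks (0.623). All 3 classes were read from the same pair of lists, so this is a description.

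The limits of the selection cut through similar peaks. Just inside the spacing lay the peaks near Lama5, whose next distal peak was 12516 bp away, and Gtf2i, at 12522 bp. Just outside were those near Gm10037, at 12463 bp, and Diap1, at 12424 bp. Lama5 and Gm10037 peaks were kept and the other two were not. The peaks nearest the TSS limit were 1001 bp from 1110001A16Rik (kept) and 1003 bp from Magi1 (not kept) inside it, and 997 bp from Wdr47 and 995 bp from Rhebl1 (neither kept) outside it.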

How the data were processed

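Peak lists of 16 ChIP-seq libraries in 8 groups (H3K27Ac, H3K4me3, H3K9me3 and Oct4 in WT and Spen KO, 2 libraries each) and 12 input libraries were described by the labels. Read pairs were aligned by the authors to mm9 (Bowtie2). Uniquely and concordantly placed pairs were retained, Picard took out duplicates, and MACS2 called peaks against input. A second alignment placed multi-mapping reads at random, and which of them the deposited lists come from is not given in the sources used here. Their H3K27Ac and H3K4me3 lists were filtered by IDR (at most 0.05), and each line holds a score of each library, the column and library order of which are not given in the sources used here. The deposited H3K9me3 lists hold joined windows with a p-value and an enrichment score, by a caller not given in the sources used here. The deposited Oct4 lists give, per library, the fold enrichment (a ratio over input), −log10 p and q values and a score. Only fold enrichment and summits were used from them, and no table of reads was used here.

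Overlap meant at least 1 shared bp. Protein-coding transcripts of GENCODE vM1 gave 46028 TSSs of 22380 genes. Positions count from 1. Context was set by protein-coding exons and gene bodies. Shares have Wilson and differences Newcombe 95% intervals. Oct4 was compared over libraries with exact permutation tests. Sequence came from NCBIM37, of the files' build. Peaks were named by score, by Oct4 in at least 3 libraries and by absence from Spen KO (chromosome 18 left out), and list genes by an isolated peak within 50 kb, up to 6 per list by score, with Tfcp2l1 matched to its older symbol Tcfcp2l1. Sox1 was not matched. The peaks, gene lists and comparisons were chosen with earlier results of these data known. The overlap and selection code was tested on simulated data. Alternatives covered overlap, IDR, list length, spacing, TSS distance and set, neighbours, multi-copy sequence and left-out Oct4 libraries. Python 3.11.15, numpy 2.4.6, pandas 2.3.3 and scipy 1.17.1 were used.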

Additional observations from a re-analysis of the deposited data

How the results depend on the processing

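Of 87 values under alternatives of results with an interval, 66 stayed inside it and 21 moved beyond it. The other 27 were Oct4 shares, which have no interval and were judged by direction alone: 26 kept it, with sizes that changed as given here and beside the result, and 1 reversed. Differences by gene context, Oct4 at a peak and multi-copy sequence were added after the data were seen. With gaps of up to 1000 bp counted as overlap, 45.1% of isolated and 60.0% of clustered peaks were kept, a difference of -14.9 points. WT H3K4me3 was then at 47.0% and the Oct4 difference in retention was 26.4 points. At an IDR of at most 0.01 in both lists, which left 1450 isolated peaks, 51.2% were kept, the difference from promoters was -30.3, WT H3K4me3 was at 48.3%, the median percentile was 38.4, the gene context difference was 16.1 and the Oct4 difference in retention 29.2. In lists of equal length, 50.7% were kept, the difference from promoters was -32.3, the H3K4me3 change -4.60, the median percentile 36.8, the gene context difference 18.7 and the Oct4 difference in retention 25.8. The difference from clustered peaks was -11.1 with a spacing of 5000 bp and -5.50 with 25000 bp. Beyond 2500 bp from a TSS, the difference from promoters was -32.4 and WT H3K4me3 was at 36.3%, and with 1 start per gene WT H3K4me3 was at 42.5%. Why these values moved was not tested, apart from the fewer peaks that stricter lists hold.

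The Spen KO minus WT difference in Oct4 share ranged from -1.65 (without WT replicate 1) to 6.27 (without WT replicate 2) points with a library left out, a value with no test since 1 library then stood for a genotype. The isolated minus clustered Oct4 difference ranged from -1.39 to -0.916, and the retention difference with Oct4 from 36.4 to 38.3. With the replicate number as a block, the genotype difference was 2.31 points (p = 1, exact sign-flip permutation test). The same-numbered libraries deviated together with a correlation of 0.0900 over 13922 peaks, so the numbers were not taken to pair them. The calls of the 19 named peaks gave 76 further values under alternatives, of which none changed. Many of these could not change. A wider gap cannot undo a kept call, and a stricter overlap or IDR cannot make an absent peak kept. The cut to equal length left the Spen KO list whole. The count therefore says little about how firm the calls are. The H3K27Ac and H3K4me3 lists allow no leave-out of a library, and unknown depth limits what a missing peak means.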

Other observations

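Some values describe the isolated distal peaks beyond their retention. Exonic isolated peaks were the richest in GC, with a median of 52.6%, against 48.3% in introns and 48.2% between genes. Isolated peaks had a median observed over expected CpG ratio of 0.205, close to the 0.203 of clustered peaks and below the 0.641 of promoter peaks. Those with Oct4 in at least 3 libraries had a median GC of 46.6%, and those without Oct4 49.0%. Kept isolated peaks held similar ranks in both genotypes on average (median percentiles 55.0 in WT and 56.5 in Spen KO), but the Spearman correlation of their WT and Spen KO scores was 0.448, against 0.499 for clustered and 0.655 for promoter peaks.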
